A study of Mus musculus with 17 samples.

Results

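The amount of ribosome footprints per RNA read was described gene by gene in mouse keratinocytes that carried a scrambled short hairpin RNA (shRNA), the control cells of a study of the RNA-binding protein Musashi-2 (Msi2). The libraries were taken by their labels: 3 footprint libraries and 3 RNA libraries of scrambled shRNA cells, which are 6 of the 17 libraries of the series. The cells were a culture from newborn C57BL/6 skin that became immortal on its own; it grew on mitomycin-treated NIH-3T3 J2 fibroblasts for its first 3 passages and without them later. All cells of both assays had been infected with lentivirus and kept in puromycin (2 ug/ml, begun on day 2 and given for 2 days), and were then expanded. Cells for footprints received cycloheximide, which stops elongating ribosomes, for 1 minute before lysis, and footprints were prepared from total RNA, whereas the RNA libraries were made from polyadenylated RNA. The other libraries are 6 of cells with an Msi2 shRNA, used here only to see whether the ratios recur, and 5 of Msi2 crosslinking (HITS-CLIP), used only through their peak list. The labels do not state that the 3 libraries of an assay are separate cultures, so the spread behind the p-values is that among libraries and may be technical, and all cells descend from a single line.

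A translating ribosome shields a short stretch of mRNA from nuclease, and sequencing the shielded pieces shows where and how densely ribosomes sit. Divided by the amount of the same mRNA, the footprints of a gene give its translational efficiency, a measure of how densely each transcript is occupied. Cells set it through the sequence before the start codon (terminal oligopyrimidine tracts, upstream open reading frames, iron-responsive hairpins) and through proteins and microRNAs bound to the 3' UTR. Keratinocytes in culture are known for high output of keratins, junction proteins and the laminin and integrins that anchor them.

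The footprint libraries held 702602 to 2959625 counts over 20572 genes and the RNA libraries 11291571 to 24931967, so low genes are limited by the footprint depth. At least 1 footprint was seen for 12559 genes and at least 1 RNA read for 13603, and 1534 genes had RNA reads without a footprint. Libraries of the same assay correlated at r = 0.957 to 0.988 over 7302 genes (log2 CPM, counts scaled to library size with TMM factors; a description across genes), and footprint with RNA libraries at 0.789 to 0.834. The 10 keratinocyte markers summed to 18835 to 22705 CPM of RNA per library. Fibroblast markers summed to 12.7 to 14.1 CPM, 8 of the 12 had no RNA read, and Col3a1, Pdgfrb, Dcn, Lum and Fap had no count in either assay. Immune markers summed to 17.0 to 19.8 CPM, of which Cd68 held 17.9 on average, melanocyte markers to 1.82 to 2.47 CPM and endothelial and muscle markers to 5.17 to 6.62 CPM.

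Taken as groups, cytosolic ribosomal proteins held 9.41% of footprints on average, actin and its partners 3.85% and keratins 2.44%. Among single genes an actin led. Actb, cytoplasmic beta-actin, held 1.41, 1.47 and 1.20% of all footprints in the 3 libraries, more than any other gene in each, while its RNA held 0.211, 0.227 and 0.179% of RNA reads. Eef1a1, the factor that carries aminoacyl-tRNA to the ribosome, followed with 0.871 ± 0.0688% of footprints (mean ± SD, n = 3) and was first in RNA, at 2.05 ± 0.121%. The basal keratin pair came next, with 0.829 ± 0.0318% of footprints for Krt5 and 0.718 ± 0.0637% for Krt14, against 0.687 ± 0.103% and 0.708 ± 0.0617% of RNA reads. Other genes among the 20 with the most footprints were the fatty acid carrier Fabp5 (0.661% of footprints), the small heat shock protein Hspb1 (0.639%), the wound keratin Krt17 (0.633%), the glycolytic enzyme Pkm (0.462%), the elongation factor Eef2 (0.360%), the 14-3-3 protein Sfn (0.299%), the giant scaffold protein Ahnak (0.284%), the plaque protein plakoglobin, Jup (0.266%), and the ribosomal protein Rpl13. Krt17 and Ahnak were uneven: the third footprint library held 0.836% for Krt17 where the others held 0.541 and 0.523%, and 0.393% for Ahnak where the others held 0.230 and 0.229%. These are shares of reads and were not divided by coding length, so a long coding sequence raises a gene's share. The spread over genes was wider in footprints: 540 to 590 genes made up 50% of the footprints of a library and 280 to 370 genes 50% of its RNA reads.

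**Figure D1:**
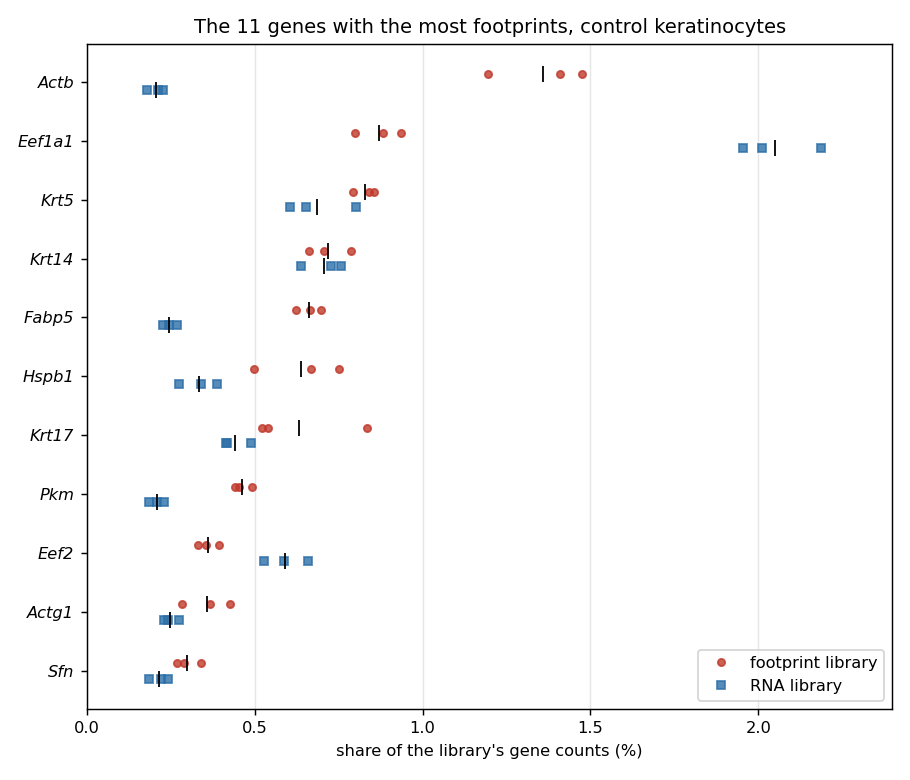
Share of each library's gene counts (%) for the 11 genes with the most footprints; circles are the 3 footprint libraries, squares the 3 RNA libraries and bars their means. Actb lies at 1.20 to 1.47% of footprints and 0.179 to 0.227% of RNA reads, and Eef1a1 and Eef2 lie higher in RNA.

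Across the genome the ratio of footprints to RNA was tested in 10549 genes with edgeR's quasi-likelihood test (Benjamini-Hochberg adjusted p under 0.05), with both assays scaled so that most genes are near a log2 ratio of 0. The ratio was above the common level in 2928 genes, 27.8% of those tested, and below it in 3228, or 30.6%; 58.4% were called in either direction. Ratios of at least 1 on the log2 scale were called in 1586 genes upward (15%) and 1691 downward (16%). The middle 50% of genes lay between -0.67 and 0.59 on the log2 scale, 80% between -1.36 and 1.33, and the median was -0.06. Scaling by total counts alone moved the median by 0.24 on the log2 scale, and 62.8% of the called genes were then higher in place of 47.6%, so a ratio has meaning only against the ratios of other genes. The ratio also holds whatever else differed between the assays (RNA selection, fragment length, depth), which cannot be told apart from ribosome density. Of the tested genes, 9609 passed the count filter in both assays, 330 only through footprints (249 called higher and 0 lower) and 479 only through RNA (299 called lower); the last 2 sets could hardly differ in the other direction.

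**Figure D2:**
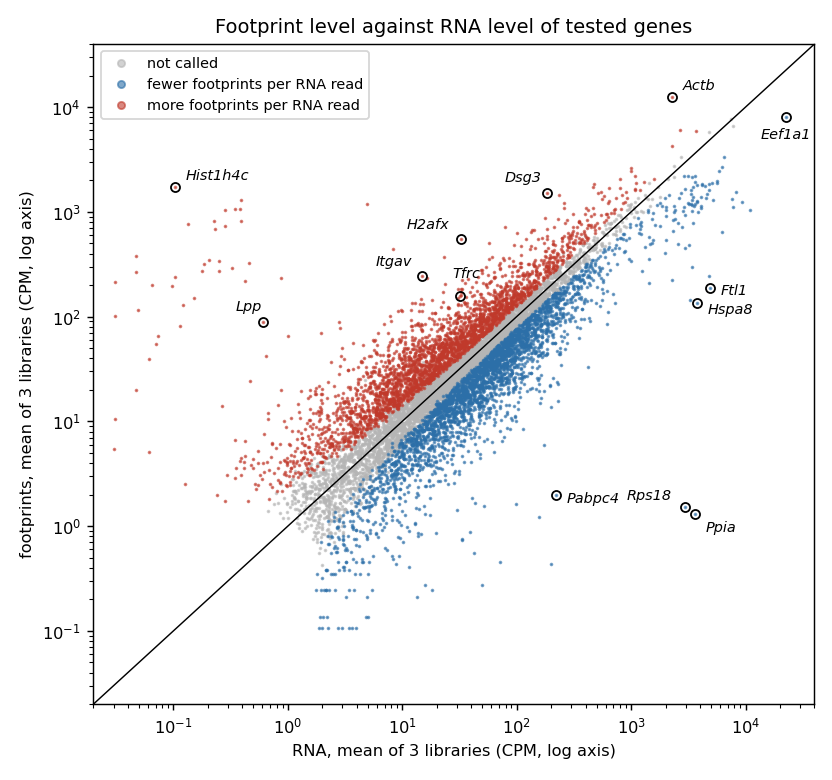
Mean footprint level against mean RNA level (CPM, both axes logarithmic, means of 3 libraries) of tested genes with a count in both assays; the line marks equal levels, red and blue points are genes called with more or fewer footprints per RNA read and grey points were not called. Ppia and Rps18 lie at 1.30 and 1.51 CPM of footprints and 3610 and 2929 CPM of RNA, and Hist1h4c and Lpp lie on the other side of the line.

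Of the gene lists, cytosolic ribosomal proteins and the list of elongation factors had the lowest median ratios. Cytosolic ribosomal proteins, the building blocks of the ribosome, were lower in 75 of 77 tested genes and higher in 0, with a median log2 ratio of -1.43 beside -0.06 for all tested genes and 30.6% of all genes called lower. Together they held 22.6 to 25.3% of RNA reads and 8.79 to 9.91% of footprints, ranges that are far apart. The lower calls reached from Rps18, described below, and Rpl18 to genes near the common level such as Rpl8 (-0.73 ± 0.17, SE; adjusted p = 0.000412). Rpl18 held 146, 158 and 128 CPM of footprints against 3277, 3666 and 2843 CPM of RNA (log2 ratio -4.49 ± 0.19, adjusted p = 1.16e-18). The 2 that were not called were Rps27l, a p53-induced relative of Rps27, at 0.11 ± 0.16 (adjusted p = 0.570), and Rpl41, the smallest of them, at 0.58 ± 0.27 (adjusted p = 0.0956). Rpl41 held 407, 702 and 650 CPM of footprints and 383, 538 and 254 CPM of RNA, and with a replicate block its ratio was called higher (0.59, adjusted p = 0.00716).

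Elongation factors and other proteins whose mRNAs are known to start with a pyrimidine tract followed the same direction, with 13 of 14 lower, 0 higher and a median of -1.41. Eef1a1 held 7962, 8811 and 7272 CPM of footprints and 21782, 22728 and 22522 CPM of RNA (-1.48 ± 0.17, adjusted p = 8.78e-09). Eef2, the translocase, was lower by less (-0.95 ± 0.16), and Tpt1, the growth-related protein TCTP, by more (-1.86 ± 0.18). Pabpc1, the poly(A)-binding protein, which also binds its own mRNA, held 232 to 261 CPM of footprints and 4084 to 5343 CPM of RNA (-4.28 ± 0.18, adjusted p = 2.94e-18). Initiation factors were mixed, with 16 of 38 lower, 5 higher and a median of -0.26, beside 30.6% lower and 27.8% higher among all tested genes. Among them Eif4g2, a scaffold of cap-independent initiation, lay at -1.59 ± 0.16 and Eif3f at -1.56 ± 0.16, while Eif4h, a helper of the RNA helicase Eif4a, lay at 1.60 ± 0.17 and Eif2s3x, an X-linked subunit of the factor that brings the initiator tRNA, at 1.05 ± 0.15. Mitochondrial ribosomal proteins, which are not of this class, were lower in 34 of 76, higher in 9 and had a median of -0.34.

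Terminal oligopyrimidine mRNAs begin with a C followed by pyrimidines, and growth signals act on translation through this end. Starts listed by RefSeq (GRCm38.p6) were available for 7980 tested genes. A C with at least 7 C or T after it, beginning no more than 20 bases from the listed start on the transcribed strand, was present in 30 of 56 ribosomal protein genes (53.6%), in 17.3% of tested genes and in 16.6% of all 27025 genes with a listed start. The following examples span the range of ratios within the class, 5' to 3', with the matched tract in capitals.
Rps18 (chr17:33955646-33955675, minus strand): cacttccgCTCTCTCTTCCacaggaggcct
Rpl18 (chr7:45718064-45718093, plus strand): gcaggccgCTCTTTCCCCgcccactccggc
Rps12 (chr10:23787180-23787209, minus strand): accgccggCCTTTTCCCCTgccgccgccga
Rpl5 (chr5:107900500-107900529, plus strand): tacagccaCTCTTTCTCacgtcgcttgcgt
Rpl28 (chr7:4792955-4792984, plus strand): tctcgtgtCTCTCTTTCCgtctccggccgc
Rps6 (chr4:86857347-86857376, minus strand): aagtcgggCCTCTTTTTCgtgacgcctccc
Eef1a1 (chr9:78481708-78481737, minus strand): tggctccgCCCTCTTCCCgagggtggggga
Rps27l (chr9:66946066-66946095, plus strand): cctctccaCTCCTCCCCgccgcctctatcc
Their log2 ratios, in the same order, were -10.8 for Rps18, -4.49 for Rpl18, -3.27 for Rps12, -1.95 for Rpl5, -1.91 for Rpl28, -1.61 for Rps6, -1.48 for Eef1a1 and 0.11 for Rps27l. Within the ribosomal proteins the median was -1.35 with such a tract and -1.47 without, and among tested genes outside both lists it was -0.06 in each case. With the stricter form, C and 4 pyrimidines exactly at the listed start, the median was -0.23 in 238 genes and -0.06 in the rest of the 7980. That form went the other way within the ribosomal proteins (-0.98 in 13 genes with it, -1.46 without), and outside both lists it lay at -0.14 in 224 genes against -0.05. In the elongation factor list a tract of the wider form was found in 2 of 8 genes (25%), with a median of -0.96 with it and -1.23 without. These matches are letters near a listed start, and the start used in keratinocytes was not measured. A match that begins before the listed start lies at least partly outside the listed transcript. Counted from that start, with negative values before it, the printed matches began at -2 (Rps18), 1 (Rpl18), 8 (Rps12) and -20 (Rpl5). The others began at -2 (Rpl28), -1 (Rps6), -5 (Eef1a1) and -12 (Rps27l).

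Ribosomal protein genes have many processed copies in the genome, and how the authors' counting treated reads that align to a gene and to its copies is not given beyond the lines for reads of more than 1 place, which held 13.4 to 17.4% of the RNA total. The median log2 ratio was -1.13 in the 15 ribosomal protein genes without a RefSeq pseudogene of their name, -1.44 in the 38 with 1 to 4 and -1.54 in the 24 with 5 or more. Outside the class, the 223 genes with such a pseudogene had a median of -0.23. Only pseudogenes whose symbol is that of the gene followed by -ps were counted, so copies under other names are left out. The part of short or shared reads in these ratios was not tested.

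The largest decreases among genes with an average of at least 5 on the log2 CPM scale included genes with almost no footprints. No footprint was counted for Tmem134, a membrane protein, against 131, 138 and 154 CPM of RNA, a ratio at least 294-fold lower (floor of 3 counts over the group, 0.473 CPM, counting error only). The mitochondrial phosphatase Ptpmt1 and the flippase Atp10d also had 0 footprints, with 65.9 to 71.2 and 49.9 to 70.5 CPM of RNA, at least 147-fold and at least 117-fold lower. Ppia, cyclophilin A, an abundant protein-folding isomerase, held 1.64, 0.956 and 1.30 CPM of footprints and 3504, 4401 and 2925 CPM of RNA (-11.5 ± 0.32, adjusted p = 2.78e-23), and Rps18 held 1.64, 1.59 and 1.30 against 2835, 3258 and 2694 CPM (-10.8 ± 0.29). Tmem134, Ptpmt1, Atp10d, Ppia, Rbm42 and Fen1 passed the count filter only through RNA, so their calls could hardly come out otherwise. Rps18 passed in both assays, but with only 10 footprints over the 3 libraries, beside 8 for Ppia, so its call was hardly more open. Rbm42, an RNA-binding protein, had 1 footprint against 10410 RNA reads (1300-fold, 95% counting interval 233 to 51372), and the flap nuclease Fen1 had 2 against 2677 (167-fold, 46.2 to 1382). RefSeq lists 5 pseudogenes named after Rps18 and 0 after Ppia, a count that leaves out copies under other names. Another coding gene overlaps Tmem134, Fen1, Asnsd1 and Rpl18. The part of copies or overlaps in these values was not tested.

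Other large decreases were at higher footprint levels or in other kinds of genes. Hspa8, the constitutive Hsc70 chaperone, held 130, 188 and 84.3 CPM of footprints and 3038, 5063 and 3231 CPM of RNA (chromosome 9, 40801276 to 40805202; log2 ratio -4.77 ± 0.28, adjusted p = 4.02e-10). The inducible poly(A)-binding protein Pabpc4 held 2.06, 2.55 and 1.30 CPM against 209, 232 and 217 (-6.63 ± 0.25), so both cytoplasmic poly(A)-binding proteins measured here were at the low end. The zinc transporter Slc39a7 (-6.50 ± 0.29), the secreted factor Metrn (-6.81 ± 0.35), the ubiquitin ligase adaptor Wsb2 (-5.82 ± 0.29) and BC005537 (-5.35 ± 0.33) were also among the 15 largest decreases; of these Slc39a7, Metrn and BC005537 passed the filter only through RNA. Footprint and RNA libraries did not overlap for any of them, as the rule for naming required, and over all tested genes 33.3% had all RNA libraries above all footprint libraries.

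Iron storage and uptake lay at opposite ends. Ferritin mRNAs carry a hairpin before the start codon that iron regulatory proteins hold when iron is scarce, and Tfrc, the transferrin receptor, carries such hairpins in its 3' UTR, where they protect the mRNA. The light chain Ftl1 held 241, 176 and 143 CPM of footprints and 3969, 5218 and 5435 CPM of RNA (chromosome 7, 45457944 to 45459886; -4.69 ± 0.21, adjusted p = 7.82e-18). The heavy chain Fth1 held 300, 217 and 372 CPM against 2964, 3308 and 3951 (-3.54 ± 0.20, adjusted p = 2.09e-15). Tfrc was in the opposite order, with 152, 198 and 121 CPM of footprints and 30.5, 28.2 and 37.1 CPM of RNA (2.33 ± 0.17, adjusted p = 1.21e-12). Of the other genes with a known or proposed iron-responsive element, the kinase Cdc42bpa was lower (-0.95 ± 0.21), and the iron transporter Slc11a2 (-0.34), the phosphatase Cdc14a (0.46) and the hypoxia factor Epas1 (1.09 ± 0.51) were not called. Over the list 3 of 8 genes were lower and 1 higher, beside 30.6 and 27.8% of all tested genes. RefSeq lists 2 pseudogenes named after Ftl1 and 0 after Fth1, with copies under other names not counted.

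Polyamine metabolism was low almost throughout, with 9 of 10 genes lower, 0 higher and a median of -1.23, beside 30.6% of all tested genes called lower. Odc1, ornithine decarboxylase, the first step of the pathway, held 465, 589 and 409 CPM of footprints and 2539, 2659 and 2502 CPM of RNA (-2.39 ± 0.17, adjusted p = 6.32e-13). Sat1, the acetyltransferase that starts polyamine breakdown, lay at -2.11 ± 0.17. Oaz1, the antizyme made by a frameshift and directed against Odc1, lay at -2.07 ± 0.17 and the antizyme inhibitor Azin1 at -1.63 ± 0.19; both were picked for mention after their values were seen. Spermidine synthase, Srm, was not called (0.13 ± 0.16).

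Stress regulators with upstream open reading frames, short frames that catch scanning ribosomes before the main start codon, were lower in 12 of 23 and higher in 3, with a median of -0.46, beside 30.6% of all tested genes lower and 27.8% higher. Ppp1r15a, the subunit that directs a phosphatase to the initiation factor eIF2, held 14.8, 2.55 and 7.78 CPM of footprints and 152, 60.0 and 131 CPM of RNA (-3.82 ± 0.75, adjusted p = 0.0101), with the second library lowest in each assay. Slc35a4, a transporter-family gene with a conserved upstream frame, held 7.81, 7.33 and 9.08 CPM against 66.6, 80.1 and 66.8 (-3.19 ± 0.22); another coding gene overlaps it. Atf4, the main transcription factor of the integrated stress response, held 366, 263 and 425 CPM of footprints and 1384, 1559 and 1314 CPM of RNA (-2.03 ± 0.17, adjusted p = 4.18e-11), and Atf5 and Ddit3, of the same response, lay at -1.57 ± 0.18 and -2.86 ± 0.69; these 3 were picked after their values were seen. Asnsd1, which carries a translated frame upstream of its main one, was among the 15 largest decreases, with 9.05, 7.33 and 1.30 CPM of footprints and 158, 181 and 184 CPM of RNA (-4.61 ± 0.23). The exceptions were the membrane-bound stress sensor Atf6 (1.96 ± 0.24), the C/EBP factor Cebpb (0.84 ± 0.17) and Ppp1r15b (0.52).

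Selenoproteins, in which a UGA stop codon is read as selenocysteine, were lower in 9 of 15 and higher in 2, with a median of -0.78. Of all tested genes 30.6% were lower and 27.8% higher. Among the lower selenoproteins 1 passed the filter only through RNA. Selk, a small membrane protein of the endoplasmic reticulum, lay at -2.53 ± 0.27, followed by the gut-type glutathione peroxidase Gpx2 (-2.31 ± 0.57), which was scarce in both assays (4.29 CPM of RNA at most). The thioredoxin reductase Txnrd1 (0.67 ± 0.15) and Sepn1 (0.75 ± 0.20) were higher. The reading frame after the UGA was not examined apart.

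**Figure D3:**
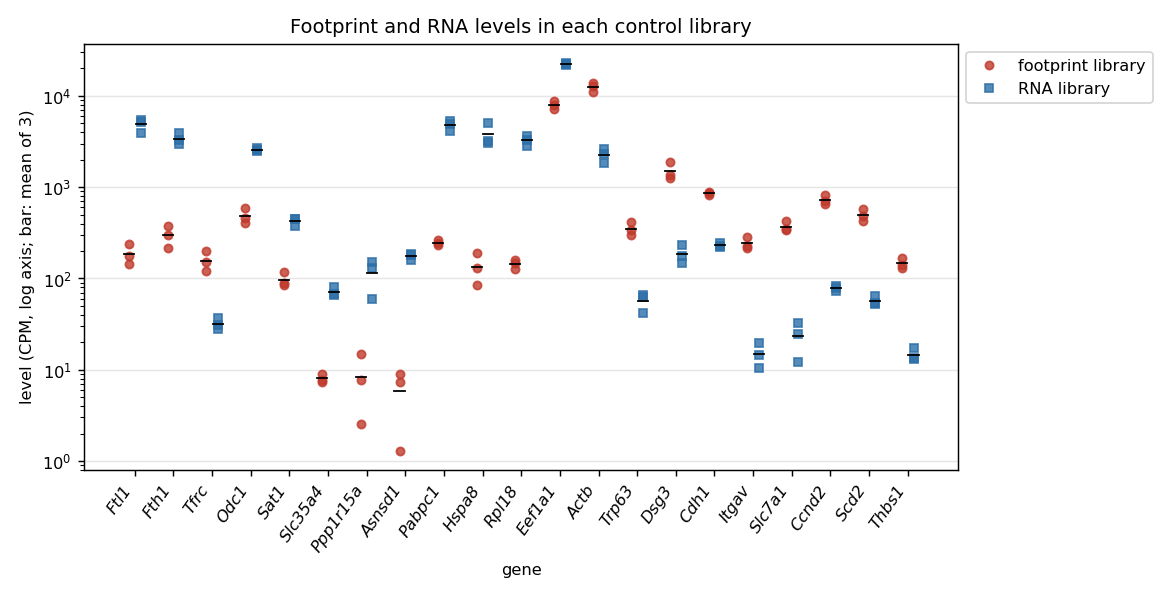
Levels (CPM, logarithmic axis) of 21 genes described in the text in each control library; circles are footprint libraries, squares RNA libraries and bars means of 3. For each gene the 3 libraries of an assay lie away from those of the other assay. RNA lies above footprints from Ftl1 to Eef1a1 except for Tfrc, and footprints above RNA from Actb to Thbs1. Footprint libraries spread widely for Ppp1r15a (2.55 to 14.8 CPM) and Asnsd1 (1.30 to 9.05 CPM).

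Adhesion genes held many footprints per RNA read. Of 22 genes of the epidermal laminin, the hemidesmosome and the integrins, which fasten basal keratinocytes to the basement membrane, 21 were higher and 1 lower, with a median of 1.23, beside 27.8% of all genes called higher. They held 1.46 ± 0.140% of footprints and 0.562 ± 0.0878% of RNA reads. Itgav, the alpha v integrin of provisional matrix, held 218, 226 and 281 CPM of footprints and 14.5, 10.5 and 19.9 CPM of RNA (chromosome 2, 83722303 to 83806917; 4.02 ± 0.20, adjusted p = 1.47e-15). Itga2, the alpha subunit of a collagen receptor, lay at 3.34 ± 0.39 with 22.3 to 40.2 CPM of footprints and passed the filter only through them; among the 21 genes that passed in both assays 20 were higher. Itga6 of the hemidesmosome lay at 1.67 ± 0.18, and the hemidesmosomal collagen Col17a1 at 1.08 ± 0.16. Itgb4, the partner of Itga6, was closest to the common level among the higher genes, with 906, 1107 and 1182 CPM of footprints and 638, 695 and 848 CPM of RNA (0.55 ± 0.16). Itgb5, another integrin beta chain, was the lower one, with 53.8 to 57.2 CPM against 123 to 152 (-1.33 ± 0.16).

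Cell-cell junctions followed. In desmosomes and adherens junctions 13 of 17 genes were higher and 2 lower (median 1.29), and in tight and gap junctions 13 of 17 were higher and 1 lower (median 1.06). Both counts stand beside 27.8% higher and 30.6% lower among all tested genes. Of the 15 tight and gap junction genes that passed the count filter in both assays, 12 were higher and 1 lower. Dsg3, the desmoglein of basal layers, held 1263, 1352 and 1911 CPM of footprints and 177, 149 and 231 CPM of RNA (3.02 ± 0.19, adjusted p = 8.01e-14), and the desmocollin Dsc3 lay at 2.62 ± 0.18. E-cadherin, Cdh1, held 820, 883 and 873 CPM against 246, 221 and 225 (1.90 ± 0.15), and Jup 2358, 2603 and 2367 against 993, 1059 and 955 (1.29 ± 0.15). Desmoplakin, Dsp, which ties the plaque to keratin filaments, was not called (0.23 ± 0.16, adjusted p = 0.240). The plakophilins Pkp3 (-0.59 ± 0.15) and Pkp4 (-1.57 ± 0.17) were lower, so members of the same structure lay on both sides. Among tight and gap junction genes the virus receptor and adhesion protein Cxadr (2.95 ± 0.16) and connexin 43, Gja1 (2.60 ± 0.15), were highest.

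Secreted matrix proteins and proteases were higher in 18 of 25 and lower in 0, with a median of 1.15. These counts and those of the transporters below stand beside 27.8% higher and 30.6% lower among all tested genes. Thbs1, thrombospondin-1, held 130, 167 and 141 CPM of footprints and 13.1, 13.3 and 17.4 CPM of RNA (3.34 ± 0.17), and the protease inhibitor Timp3, which passed the filter only through footprints, lay at 2.59 ± 0.39. Its relatives Timp1 (-0.46 ± 0.20, adjusted p = 0.0524) and Timp2 (-0.17 ± 0.15) were not called, though Timp1 was called lower with a replicate block (-0.48, adjusted p = 0.0355). Amino acid transporters were higher in 7 of 11 and lower in 0, with a median of 1.00. The arginine and lysine carrier Slc7a1 held 426, 345 and 341 CPM of footprints and 24.4, 12.3 and 32.9 CPM of RNA (4.02 ± 0.34), and the glutamine carrier Slc38a2 held 939, 672 and 1017 against 183, 125 and 222 (2.31 ± 0.20). Slc3a2, the shared heavy chain of several carriers, lay near the common level (0.33 ± 0.15, adjusted p = 0.0668; 0.33 with adjusted p = 0.00738 with a replicate block). Slc7a11, the cystine carrier listed with redox genes, lay at 3.49 ± 0.21.

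Sterol and fatty acid synthesis was higher in 19 of 31 genes and lower in 4, with a median of 0.86. This list and the actin list below stand beside 27.8% higher and 30.6% lower among all tested genes. The elongase Elovl6 (3.31 ± 0.30) and the desaturase Scd2 (3.14 ± 0.17; 483, 583 and 429 CPM of footprints, 54.0, 52.3 and 64.9 CPM of RNA) were highest. Mevalonate kinase, Mvk, was lower (-1.18 ± 0.20), as was Tm7sf2, a sterol reductase (-1.37 ± 0.36). Actin and its partners were higher in 20 of 33 and lower in 6, with a median of 0.57. Actb led them with 12732, 13894 and 10901 CPM of footprints and 2288, 2636 and 1839 CPM of RNA (2.47 ± 0.18, adjusted p = 1.00e-12), while Actg1, the gamma form of nearly the same protein, was not called (0.28 ± 0.17, adjusted p = 0.167) except with a replicate block (0.27, adjusted p = 0.0255). The Arp2/3 subunit Arpc1a (-1.90 ± 0.17) and the myosin light chain Myl12b (-1.48 ± 0.24) were lowest. As Actb and Actg1 share most of their coding sequence, reads could be split between them.

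The largest increases outside the histones, a rule set after the histones were seen to fill the first one, began with Lpp, a LIM protein of focal adhesions. It held 79.0, 88.2 and 97.3 CPM of footprints and 0.109, 0.793 and 0.912 CPM of RNA (7.21 ± 0.30, adjusted p = 8.74e-17), and with 29 RNA reads in all it passed the count filter only through footprints, so its call could hardly come out otherwise. After Lpp and the histone variant H2afx came Itgav, Slc7a1, the receptors Notch2 (3.85 ± 0.33), Epha4 (3.62 ± 0.19) and Ncam1 (3.60 ± 0.17), the transcription factors Rest (3.74 ± 0.20) and Sp1 (3.53 ± 0.20), the lipase Abhd2 (3.63 ± 0.18), the membrane-protein insertase subunit Emc1 (3.50 ± 0.19), the tankyrase Tnks (3.48 ± 0.46), the ubiquitin ligase Rlim (3.37 ± 0.16), Thbs1 and the adhesion protein Sdk2 (3.26 ± 0.18). Footprints of these genes lay between 69.9 and 621 CPM and RNA between 0.109 and 38.5 CPM in every library. Rest held 110, 108 and 88.2 CPM of footprints and 9.37, 5.41 and 8.66 CPM of RNA, and Notch2 193, 224 and 283 against 12.7, 10.8 and 25.4. All 3 footprint libraries lay above all 3 RNA libraries in each, as the rule for naming required, and over all tested genes the share was 29%.

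Replication-dependent histones, whose mRNAs end in a stem-loop and lack a poly(A) tail, stood apart from all other groups. They held 2.00 ± 0.366% of footprints and 0.00245 ± 0.000111% of RNA reads, or 115898 footprints against 1387 RNA reads over 68 genes. All 53 that were tested were higher, and 50 of these passed the filter only through footprints, so that count could hardly come out otherwise. Hist1h4c, a histone H4 gene, held 2339, 1497 and 1337 CPM of footprints and 0.218, 0 and 0.0912 CPM of RNA. The linker histone Hist1h1b held 1441, 1292 and 1148 CPM against 0.163, 0.560 and 0.456. Hist1h2bg had no RNA read and was at least 5846-fold higher in footprints (floor of 3 counts over the RNA libraries, 0.0591 CPM). At the low end, Hist3h2ba lay at 3.25 ± 0.45 and Hist1h4i at 4.96 ± 0.50, and the median of the 53 with RNA counts under the floor set to it was 10.5. The RNA libraries selected for poly(A), and the part of that selection in the ratio was not tested. Copies of these genes are close to identical in sequence, so their single values are uncertain.

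Histone variants with polyadenylated mRNAs showed no common direction, with 3 of 10 higher and 4 lower, beside 27.8 and 30.6% of all tested genes. H2afx, the variant phosphorylated at DNA breaks, whose gene gives a stem-loop and a polyadenylated form, held 505, 621 and 511 CPM of footprints and 38.5, 29.0 and 29.5 CPM of RNA (4.08 ± 0.17). H3f3a (0.90 ± 0.17) and H3f3b (0.75 ± 0.16), which encode histone H3.3, were higher. H2afz (-1.09 ± 0.17) and H2afj (-0.97 ± 0.15) were lower.

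Regulators of transcription and RNA spread widely, and their counts stand beside 27.8% higher and 30.6% lower among all tested genes. Of 22 epidermal transcription factors 11 were higher and 1 lower (median 0.73): Trp63, the master factor of stratified epithelium, held 336, 299 and 420 CPM of footprints and 63.2, 41.8 and 65.8 CPM of RNA (2.62 ± 0.18, adjusted p = 3.85e-13), Ehf lay at 2.36 ± 0.26, and the mitotic factor Foxm1 was lower (-0.94 ± 0.17). Immediate early and AP-1 factors were higher in 11 of 25 and lower in 4 (median 0.51), from Fosl2 (2.66 ± 0.18) and Klf5 (2.16 ± 0.15) to Nr4a1 (-1.16 ± 0.28) and Jund (-1.57 ± 0.17). Among the 24 of these that passed the count filter in both assays, 10 were higher and 4 lower. Among proteins that bind RNA or act on the 3' UTR 25 of 44 were higher and 12 lower (median 0.50), with the translation regulator Cpeb4 (2.54 ± 0.40, passing the filter only through footprints) and the silencing scaffold Tnrc6b (2.52 ± 0.22) highest and Pabpc4 and the deadenylase Cnot7 (-2.05 ± 0.19) lowest. Of the 42 that passed in both assays 23 were higher and 12 lower. Msi2 itself held 16, 15.9 and 16.9 CPM of footprints and 6.92, 7.09 and 9.39 CPM of RNA in these control cells (1.06 ± 0.25, adjusted p = 0.000653). In SR proteins and hnRNPs, which bind nascent RNA, 13 of 31 were lower and 8 higher; the splicing kinases Clk1 (-1.59 ± 0.19) and Clk4 (-1.71 ± 0.22) were at the low end, and Srsf1 (1.31 ± 0.16) and Ptbp3 (2.38 ± 0.17) at the high end.

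Zinc finger genes named Zfp, mostly repressors with many fingers, were lower in 108 of 242 and higher in 36, with a median of -0.63. The shares over all tested genes were 30.6% lower and 27.8% higher. Many were scarce, and 51 passed the filter only through RNA and 10 only through footprints. Among the 171 that passed in both assays 71 were lower and 30 higher, with a median of -0.42 beside -0.05 for all 9609 such genes. Zfp946 had 2 footprints against 273 RNA reads (17.1-fold lower, 95% counting interval 4.68 to 142), and Zfp871 (4.70 ± 0.38, passing only through footprints) and Zfp275 (3.34 ± 0.32) lay at the other end.

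Several abundant groups had medians between -0.33 and 0.32, though calls leaned low in proteasome subunits and high in endoplasmic reticulum chaperones. Their counts, and those of the lists after them, stand beside 27.8% higher and 30.6% lower among all tested genes. Keratins were higher in 0 of 17 and lower in 5, with a median of 0.02: Krt5 lay at 0.02 ± 0.17, Krt14 at -0.23 ± 0.16 and Krt17 at 0.27 ± 0.18, none of them called, while Krt7, a keratin of simple epithelia, was lower (-1.70 ± 0.18). Of the 16 keratins that passed the count filter in both assays, 4 were lower and 0 higher. Krt15 was called higher with a replicate block (0.44, adjusted p = 0.0306) and not without it (0.52 ± 0.35, adjusted p = 0.232); its libraries ranged from 31.1 to 55.4 CPM of footprints and 16.6 to 41.5 CPM of RNA. Cornified envelope genes were higher in 9 of 22 and lower in 3 (median 0.26), led by the protease inhibitor Spink5 (1.19 ± 0.16) and Krtdap (1.02 ± 0.19). Cytosolic aminoacyl-tRNA synthetases were higher in 3 of 23 and lower in 3 (median -0.06). Proteasome subunits were lower in 19 of 40 and higher in 3 (median -0.33), with Psmd11 apart from the rest at 11.7 to 20.1 CPM of footprints against 146 to 172 of RNA (-3.36 ± 0.20). Respiratory chain subunits were lower in 26 of 75 and higher in 12 (median -0.21); Cox6a1 (1.61 ± 0.18) and Cox8a (1.37 ± 0.16) lay high and Cox7c (-1.80 ± 0.21) low. Chaperones were lower in 10 of 30 and higher in 3 (median -0.16). Of these, 2 passed the count filter only through RNA, and among the 28 that passed in both assays 8 were lower and 3 higher. Endoplasmic reticulum chaperones and entry factors were higher in 15 of 31 and lower in 7 (median 0.32), with the signal peptidase subunit Spcs3 at 2.30 ± 0.17.

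The remaining lists were mixed as well. Glycolysis held Hk2, the inducible hexokinase (2.31 ± 0.15), and the glucose carrier Slc2a1 (1.77 ± 0.15) at its upper end and Gapdh (-1.63 ± 0.16) at its lower, with 6 of 17 higher and 3 lower. Gapdh held 1210, 988 and 1248 CPM of footprints and 3471, 3769 and 3420 CPM of RNA. RefSeq lists 3 pseudogenes named after it. Cell cycle genes were higher in 14 of 46 and lower in 9, from the cyclin Ccnd2 (699, 811 and 652 CPM of footprints, 82.4, 73.2 and 79.3 CPM of RNA; 3.21 ± 0.16) and its kinase Cdk6 (2.86 ± 0.19) to the centromere histone Cenpa (-1.31 ± 0.18). Cytokines and growth factors were higher in 11 of 28 and lower in 4, with the ligands Ereg (2.65 ± 0.29) and Jag1 (2.46 ± 0.19) highest and Tgfb1 (-1.29 ± 0.16) lowest. Among the 27 of them that passed the count filter in both assays, 10 were higher and 4 lower. S100 proteins and annexins (5 of 19 higher, 2 lower), serpins and stefins (4 of 17 each way), galectins (2 of 5 higher, 0 lower) and redox genes (10 of 25 higher, 3 lower) had medians of 0.20, 0.05, 0.19 and 0.27. The median changed sign under at least 1 other scaling, filter or left-out library for respiratory chain, polyadenylated histone variant, keratin, serpin, iron, SR and hnRNP, cell cycle, chaperone, cytosolic synthetase and glycolysis genes, and under none for the other lists named here.

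**Figure D4:**
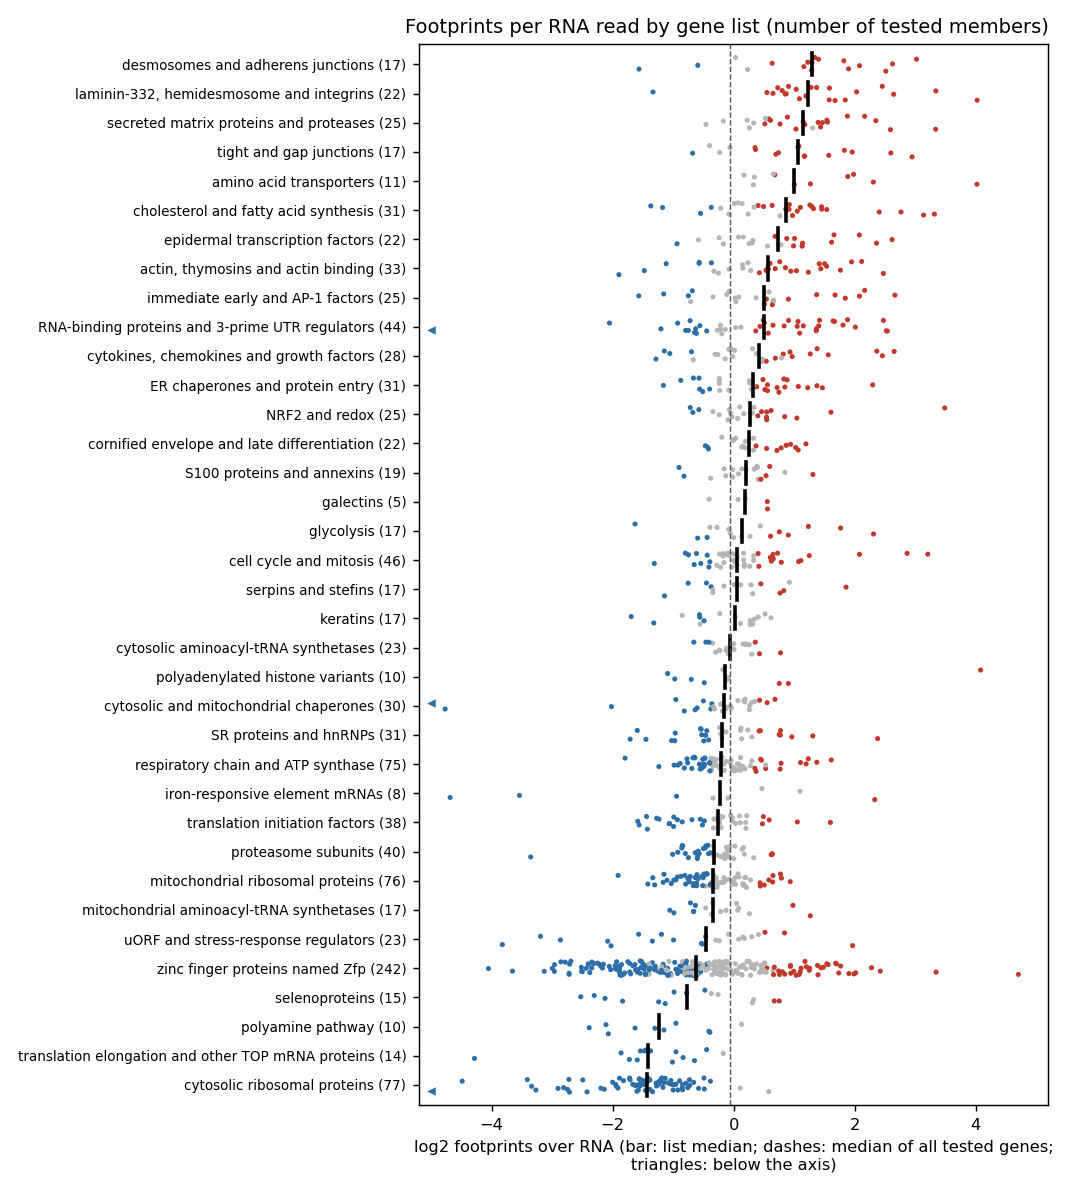
Log2 ratio of footprints to RNA of every tested member of 36 gene lists, ordered by median (black bar); red and blue points were called higher or lower and grey points were not called, the dashed line is the median of all tested genes, and triangles mark members below the axis. Ribosomal proteins and elongation factors lie lowest, with medians of -1.43 and -1.41, and junction, integrin and matrix genes highest, with medians of 1.06 to 1.29; histones at a median above 10 are not drawn.

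Sorting genes by the letters of their symbols, a rule chosen after the data were seen, placed ribosomal proteins and histones at the same ends as the lists. These stems hold largely the same genes as those lists, so that placing could hardly come out otherwise. The Rps stem also holds other genes, and 3 of its 40 were higher, against 0 of 77 listed ribosomal proteins. The stems Itga, Cldn and Col of integrins, claudins and collagens had fewer members than the rule asks. Of 48 stems with at least 20 tested genes, Rpl (median -1.34) and Rps (-1.26) were lowest, followed by Ankrd (-0.62), Zfp (-0.61), Ppp (-0.59) and Mettl (-0.59). Hist was highest, followed by Cd, a name for surface antigens (0.52), Zbtb (0.41), Rab, the GTPases of vesicle traffic (0.36), and Slc, the solute carriers (0.33). Of the Slc genes 66 of 170 were higher and 34 lower, beside 27.8 and 30.6% of all tested genes.

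The ratio varied with the level of RNA and with the length of the gene. Over 5 equal bins of RNA level its median fell from 0.46 in the lowest to -0.28 in the highest, with Spearman's rho of -0.25 over 10549 genes; RNA level is also the denominator of the ratio, so the measures are not independent. Over 5 bins of genomic span the median went from -0.24 in the shortest genes to 0.29 in the longest (rho 0.22 over 9842 genes); span includes introns and is not coding length. Genes with an Msi2 CLIP peak in the 3' UTR (1145 tested genes) had a median of 0.58 in these control cells, against -0.12 in the 9404 others, and the 287 with 3 or more peaks had a median of 1.08. The difference was present in each bin of RNA level, from 2.42 with and 0.42 without a peak in the lowest to 0.23 and -0.42 in the highest, and in each bin of span, from 0.39 and -0.28 to 1.01 and 0.20. Genes with a peak also had more RNA (median 71.8 against 25.9 CPM), and these medians over genes are descriptions with no test.

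The same ratio was computed in the 6 libraries with an Msi2 shRNA, which share no library with the control. There, 3163 of 10474 genes were higher (30.2%) and 3392 lower (32.4%). Among 10287 genes tested in both, 2398 of the 2874 higher in control cells were higher in the knockdown (83.4% of the control calls, 76.5% of the knockdown calls) and 1 was lower, and 2711 of 3200 lower genes were lower again (84.7 and 81.2%) and 3 higher. Pearson's r across genes was 0.93 and the median absolute difference 0.26 on the log2 scale. Ribosomal proteins were lower in 69 of 77 and higher in 2 in the knockdown with a median of -1.09, elongation factors and other proteins of that list lower in 12 of 14 and higher in 1 with -0.73, and integrin and hemidesmosome genes higher in 21 of 22 with 1.19. Lists near the common level did not all keep their side: mitochondrial ribosomal proteins had a median of 0.07 in the knockdown (22 higher, 19 lower), respiratory chain subunits 0.17 (33 higher, 15 lower), initiation factors 0.03 (9 higher, 14 lower), cytosolic synthetases 0.22 (11 higher, 1 lower), chaperones 0.02 (7 each way) and polyadenylated histone variants 0.13 (3 each way). Ftl1 (-5.15), Fth1 (-4.22), Tfrc (2.23), Odc1 (-2.04), Pabpc1 (-4.60), Hspa8 (-4.84), Ppia (-9.70), Dsg3 (2.78), Itgav (3.55) and Trp63 (2.31) kept their sides. The test of the difference itself, the interaction of assay and shRNA over all 12 libraries, called 22 of 10821 genes (0.203%).

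**Figure D5:**
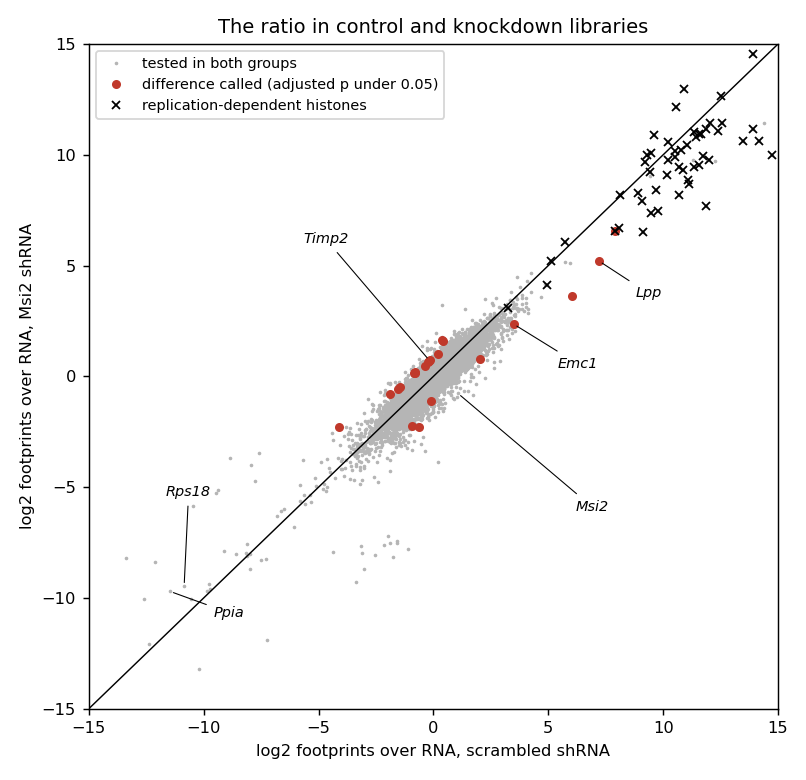
Log2 ratio of footprints to RNA in Msi2 shRNA libraries against scrambled shRNA libraries, 1 point per gene tested in both groups; the line marks equal ratios, red points are genes whose difference was called and crosses are replication-dependent histones. Most points lie along the line (r = 0.93), and genes with few counts in an assay, at both ends, lie farther from it; a fitted ratio against no counts is not a measured value.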

How the data were processed

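Both count tables were deposited as whole numbers per gene, taken over coding sequence. TopHat, HTSeq and DESeq are named, without versions, in the submitters' processing notes, with mm10 as the build; the footprint columns are tied to samples by the deposited description of the columns. In the RNA table, lines that name no gene held 32.3 to 34.4% (no feature), 13.4 to 17.4% (not unique) and 0.192 to 0.228% (ambiguous) of the total and stayed out of library sizes and tests. The deposited peak list gives a signal, the authors' peak height, and was used only for the presence of a 3' UTR peak; the CLIP notes name cutadapt and Novoalign.

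Tables were joined by symbol. Footprints were tested against RNA (3 against 3 libraries) with edgeR 4.0.16 under R 4.3.3, using its robust quasi-likelihood test at an adjusted p under 0.05, TMM factors and filterByExpr (10 counts at least, 15 in total). The 10 counts hold at the median library size, as a cut of 1.40 CPM, so fewer counts pass in the smaller footprint libraries. The knockdown was fitted the same way, and the difference as an interaction over 12 libraries. Replicate numbers went together across the assays: deviations of same-numbered footprint and RNA libraries from their means correlated at 0.179 to 0.284, other pairs at -0.217 to -0.0242 (7302 genes). As the deviations of 3 libraries cancel out, the negative values are no separate evidence of pairing. The main fit left the pairing out, and the replicate block used it. No 2 of the 6 libraries were identical. Gene positions, pseudogene names and start sequences came from RefSeq tables of GRCm38.p6. Coding lengths were not available, so the planned levels per kilobase were not computed. Counting intervals (95%) and floors (3 counts) cover counting error only.

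Gene lists and members were chosen with earlier results of these data known. Named genes are the 15 largest called increases and decreases (average log2 CPM of at least 5, no overlap), the 20 genes with the most footprints, the 2 highest and 2 lowest of each list, lists of up to 12 genes whole, keratinocyte markers and Msi2; predicted genes are not named, and some genes under this rule are not reported here. On simulated data (10448 genes) log2 changes of 0.5, 1 and 2 were recovered in 15.2, 80.3 and 95.5% of genes, with 4 false calls. Each size was given to 66 genes, up or down at random, and all other genes were left unchanged. In the data 58.4% of tested genes were called, so the false calls of the simulation do not measure errors among the real calls. Alternatives were DESeq2 1.42.0, limma 3.58.1 (voom), other factors and filters, a replicate block and each library left out.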

Additional observations from a re-analysis of the deposited data

Results flagged for a closer look

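For 3 named genes the footprint-to-RNA ratio differed between knockdown and control cells by the interaction test of edgeR over 12 libraries, each with an adjusted p of 0.0336. The ratio of Lpp, the focal adhesion protein with almost no RNA reads over its coding sequence, was 7.21 ± 0.30 (SE) in control and 5.20 ± 0.21 in knockdown libraries on the log2 scale, a difference of -1.99. That of Emc1, a subunit of a membrane-protein insertase, was 3.50 ± 0.19 and 2.35 ± 0.13, a difference of -1.12. Timp2, an inhibitor of matrix proteases, was not called in control cells (-0.17 ± 0.15) and was higher in the knockdown (0.72 ± 0.11), a difference of 0.91; another coding gene overlaps it. Msi2 itself moved from 1.06 ± 0.25 to -0.76 ± 0.44, a difference of -1.79 that did not pass the test (adjusted p = 0.117).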

How the results depend on the processing

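The counts of 2928 higher and 3228 lower genes stayed within 1.5 times of these values under every other normalization, test, filter and left-out library tried. A minimum ratio of 1 on the log2 scale left 1586 higher and 1691 lower. Scaling by total counts gave 3781 and 2242, and a filter of 10 CPM in each assay gave 2051 and 2232 of 7284 tested genes. With a replicate block, which uses the pairing of library numbers, 3140 genes were higher and 3418 lower, no named gene lost its call, and 5 of 225 gained one (Actg1, Krt15, Rpl41, Slc3a2 and Timp1); in the knockdown the block gave 3264 and 3473. Leaving out 1 library gave 2468 to 2983 higher and 2701 to 3169 lower genes, and 2610 to 3112 and 2859 to 3341 in the knockdown; when an assay keeps 2 libraries its spread rests on those.

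No called named gene reversed under any alternative. Calls were lost most often under total counts only (15 of 225) and without the first footprint library (13 of 225). The call of Btf3 (-0.45, adjusted p = 0.0183) missed the threshold in 5 of the alternatives, where edgeR's adjusted p ranged up to 0.251. The median log2 ratio of histones was 5.35 at the lowest, with filters that keep few of them. Footprint depth (702602 counts in the smallest library) limits genes with few footprints, and the self-test recovered few changes of 0.5.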

Other observations

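Some abundant mRNAs outside the groups above also held few footprints for their RNA; they were picked after their values were seen. Ccni, cyclin I, held 13.7 CPM of footprints against 199 CPM of RNA on average (log2 ratio -3.97, mean of 3 libraries each), the ubiquitin ligase Rnf10 33.0 against 422 CPM (-3.65), the casein kinase Csnk1g2 23.5 against 227 CPM (-3.42), the Wnt receptor Ryk 22.7 against 228 CPM (-3.31), the kinase Cdk16 16.8 against 163 CPM (-3.26) and the actin regulator Evl 19.7 against 157 CPM (-3.13). In the other direction, 490 genes had footprints in control cells and no RNA read over the coding sequence.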
